A study of Mus musculus with 6 samples.

Results

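Alternative macrophage activation was followed through 10 genes that are commonly read as its markers: the receptor gene Il4ra, the transcription factor gene Egr2, the effector genes Arg1, Chil3 and Retnla, the scavenger and lectin receptor genes Mrc1 and Cd163, the enzyme genes Tgm2 and Alox15, and the matrix gene Fn1. They were chosen by name. Each was read from a probe set annotated to that gene symbol alone, all 10 were found among 22180 genes tested, and none had a second such probe set. Gene expression had been measured on 6 arrays of Raw 264.7 cells, a mouse line with macrophage properties from a virus-induced tumour. Of these, 3 arrays were labelled IL-33, for cells given the IL-1 family cytokine IL-33 at 50 ng/ml after starvation, and 3 were labelled PBS, for cells kept without it. Cells of both groups had been grown with 10% serum and held in 2% serum during treatment, carried no genetic change named in the labels, and were treated for a time that is not stated. The sample descriptions hold array names that oppose the titles, IL standing in the names of PBS samples and P in those of IL-33 samples. Directions below follow the titles and would all turn if the labels were exchanged.

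Macrophages take on the alternative state when IL-4 or IL-13 binds a receptor that contains the IL-4 receptor alpha chain, which acts through Janus kinases on the transcription factor STAT6. Genes such as Arg1, Chil3, Retnla and Mrc1 are strongly induced in mouse macrophages by this route, whereas the classical state, driven by interferon gamma and bacterial products, is marked by Nos2 and inflammatory cytokines. IL-33 has been studied as a cytokine that strengthens the alternative state, and the comparison asked how these markers differed between cells with and without it.

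No marker passed the test over all genes, and 8 of the 10 lay at or under the median of all genes in both groups. With the threshold set at an adjusted p of 0.05 (limma, with Benjamini-Hochberg adjustment), 0 of the 10 markers were higher and 0 were lower in the IL-33-labelled arrays, where 131 of all genes passed, or 0.591%. At an unadjusted p under 0.05, 1 marker passed, Egr2, beside 13.2% of all genes. Egr2 was also the only marker whose 3 values in one group did not overlap the 3 in the other, which was so for 20.3% of all genes. Of the 10 markers 4 had a difference above 0 and 6 below, where 47.9% and 52.1% of all genes did, and their median difference was -0.07 (log2), beside -0.0051 for all genes. Across the 10 markers, every bound of a 95% interval of the log2 difference lay between -0.65 and 0.31, so the largest fold inside any of these intervals was 1.57. RMA, the summary method behind the values, compresses differences near the low end of the scale, so these bounds apply to the array values and may understate a change in RNA there.

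The arrays gave 1 log2 value per probe set, and array medians lay between 5.31 and 5.36. Values within a group correlated at r = 0.9972 to 0.9980 across genes, and values of different groups at r = 0.9967 to 0.9971. Of 10 macrophage identity genes 9 had a mean above the median of all genes. Only the high-affinity IgG receptor gene Fcgr1 passed, higher in the IL-33-labelled arrays with an adjusted p of 0.0448 (limma). The call was lost in each of the 6 fits without an array, where the log2 difference of Fcgr1 stayed between 0.44 and 0.54. It was also lost with the replicate block. Adgre1 of the same list, named after its values were seen, differed by -0.29 at an adjusted p of 0.114 (limma). Of the 10 genes 5 lay above 0 and 5 below, and in 6 the groups did not overlap, beside 20.3% of all genes. Among 49 measured markers of fibroblasts, endothelium and epithelium, mast cells, granulocytes and lymphocytes, 2 passed, the histamine-forming enzyme gene Hdc at 0.77 and the immunoglobulin gene Ighm at 0.65 (log2 differences). Hdc was lost in 5 of the 6 fits without an array, all but the one without PBS replicate 2, and Ighm in all 6. In these fits the log2 difference of Hdc stayed between 0.71 and 0.85 and that of Ighm between 0.58 and 0.71. With the probe sets of a gene averaged, Ighm differed by 0.15 with an adjusted p of 0.374 (limma). The mean over the mast cell list lay between 4.22 and 4.33 in the PBS group and between 4.34 and 4.39 in the IL-33 group, and 6 of its 10 genes sat near the low end. Without Hdc the mean of the other 9 lay between 4.002 and 4.113 and between 4.048 and 4.082, so the groups overlapped. The mean over the lymphocyte list lay between 5.09 and 5.21 and between 5.13 and 5.22, with 4 of 9 genes near the low end. Their part in the marker differences was not tested. Whether samples of a group were separate cultures is not stated, so the p-values reflect only how far these samples spread, and that spread could be technical. Arrays give no count depth, and their number limits the precision: the standard error of a marker's log2 difference lay between 0.064 and 0.13.

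The table holds no detection calls, so the position of each marker was described against all genes. A marker was taken to sit near the low end when its mean in both groups was at or under the 25th percentile of all genes, which was 4.42 in the PBS-labelled arrays and 4.40 in the IL-33-labelled ones. By this rule 3 of the 10 markers, Chil3, Retnla and Cd163, sat near the low end, where 24.1% of all genes did. Fn1 and Arg1 lay just outside it: Fn1 stood at percentile 26.0 in the PBS group and 26.9 in the IL-33 group. Arg1 stood at percentile 27.69 in the PBS group and 24.98 in the IL-33 group. With the 25th percentile taken over all probe sets instead of genes, 2 markers sat near the low end. A second yardstick was the 1105 olfactory receptor genes on the array, which a macrophage is not expected to use at a high level. Against the 95th percentile of these genes, 5.37 and 5.32 in the PBS and IL-33 groups, 6 markers sat at or under the limit in both groups: Arg1, Chil3, Retnla, Mrc1, Cd163 and Fn1. Of all genes 42.5% did. Against the median of all genes, 8 markers did, all but Il4ra and Egr2, beside 49.3% of all genes. Probe sets differ in brightness for the same amount of RNA, so a percentile places a probe set on the scale and does not measure one gene against another.

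**Figure D1:**
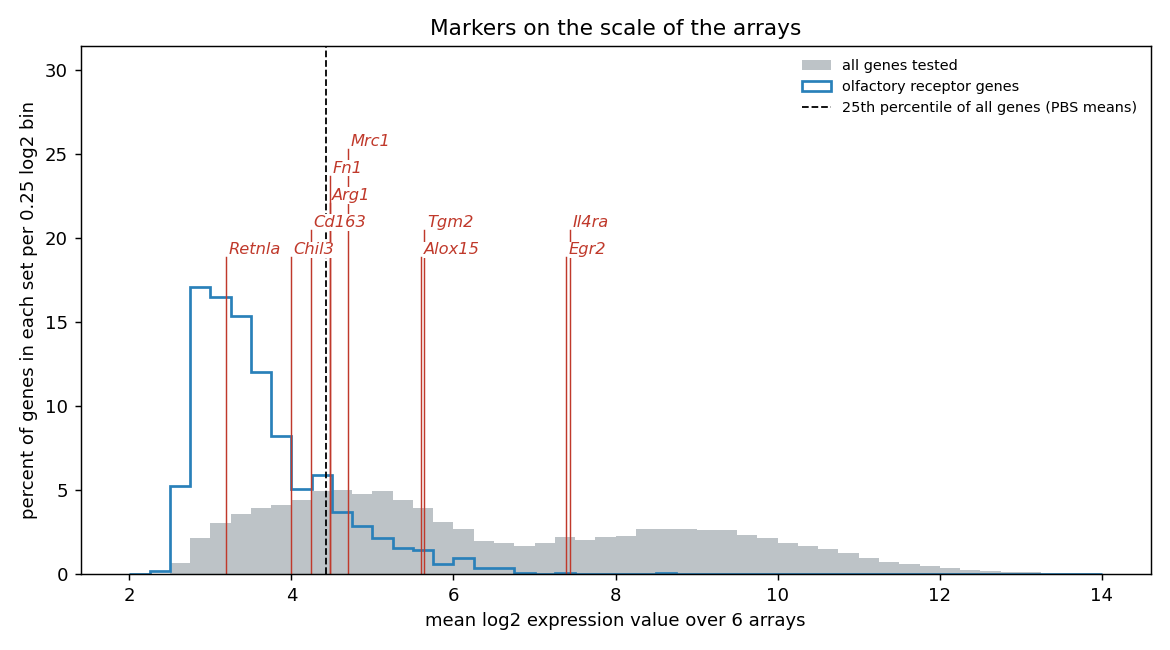
The grey histogram shows the percent of all 22180 genes in each bin of mean log2 expression value over 6 arrays, the blue outline the same for 1105 olfactory receptor genes, and each red line a marker. The dashed line is the 25th percentile of all genes (PBS means, 4.42). Retnla, Chil3 and Cd163 lie left of it, Fn1, Arg1 and Mrc1 close to its right, and Il4ra and Egr2 stand furthest right.

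The receptor chain came first on the pathway and was well above the low end. Il4ra (Entrez gene 16190) encodes the alpha chain shared by the receptors for IL-4 and IL-13. Its log2 values were 7.37, 7.53 and 7.46 in PBS replicates 1 to 3 and 7.39, 7.38 and 7.50 in IL-33 replicates 1 to 3. The groups overlapped almost fully. The difference was -0.03 ± 0.06 (log2, SE), with a 95% interval from -0.18 to 0.12 and an adjusted p of 0.875 (limma). In fold this interval ran from 0.881 to 1.09 times the level of the PBS-labelled arrays, the narrowest range among the 10 markers. Il4ra stood at percentile 65.0 of all genes in the PBS group, and 0.09% of the olfactory receptor genes were as high.

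Egr2 (Entrez gene 13654), a zinc finger transcription factor that IL-4 induces in macrophages and that growth factor signals also switch on early, showed the largest difference among the markers. Log2 values of Egr2 were 7.73, 7.55 and 7.48 in PBS replicates 1 to 3 and 7.42, 7.12 and 7.05 in IL-33 replicates 1 to 3. Every array labelled IL-33 lay below every array labelled PBS, and the gap between the nearest pair, IL-33 replicate 1 and PBS replicate 3, was small. The mean was 7.59 ± 0.13 (SD, n = 3) under the PBS label and 7.20 ± 0.20 (SD, n = 3) under the IL-33 label. The difference was -0.39 ± 0.11 (log2, SE), a level 1.31-fold lower, with an unadjusted p of 0.0107 and an adjusted p of 0.213 (limma). It ranked 1114 by p among all genes. With a prior variance trended on intensity and robust to outliers, a setting in which 1000 of all genes passed, Egr2 passed with an adjusted p of 0.0484 (limma), and it did not pass in any of the other 14 alternatives.

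Because Egr2 gave the widest separation, short stretches from its promoters are shown. RefSeq (GRCm38.p6) lists 5 starts for Egr2, and 4 of the 250-base windows before them hold a CArG box, the element bound by serum response factor, on either strand. The capitals mark the box, and the motif was chosen after the sequences were seen. The upper stretch lies at chr10:67537484-67537513 and the lower at chr10:67537787-67537816, both on the plus strand, and each box begins 72 bases before a listed start.
Egr2 upstream box: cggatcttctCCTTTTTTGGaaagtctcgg
Egr2 downstream box: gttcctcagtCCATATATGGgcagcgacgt
A CArG box was present in 1.47% of 32851 promoter windows of that length, and in any window of 1.62% of 27025 genes. The match is a description of the letters and says nothing of whether the factor was bound.

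The relatives of Egr2 were read on the same arrays. Egr1, the serum-induced zinc finger factor, was at 8.50 ± 0.04 (SD, n = 3) in the PBS-labelled arrays and 8.76 ± 0.04 (SD, n = 3) in the IL-33-labelled ones, which is 0.25 apart, at an adjusted p of 0.101 (limma). Egr3 differed by -0.03 and Egr4 by -0.17, with adjusted p of 0.923 and 0.692 (limma); these genes and the ratios below were chosen after their values were seen. Within arrays, the log2 ratio of Egr2 to Egr1 differed by -0.64 ± 0.15 (SE) between the groups, and that of Egr2 to Egr3 by -0.36 ± 0.11 (SE). The groups did not overlap in either ratio. Each gave an exact two-sided permutation p of 0.1, the smallest that 3 arrays against 3 allow, and 0.15 adjusted over the 6 ratios computed. For pairs low on the scale, the ratio of Retnla to its relative Retnlg differed by -0.42 ± 0.14 (SE). That of Chil3 to its relative Chil4 differed by -0.10 ± 0.06 (SE). In these ratios too the groups did not overlap, with the same exact permutation p of 0.1, or 0.15 adjusted, so this was not particular to Egr2. The ratio of Egr2 to Egr4 differed by -0.21 ± 0.28 (SE) with overlapping groups and an exact permutation p of 0.4, or 0.48 adjusted.

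**Figure D2:**
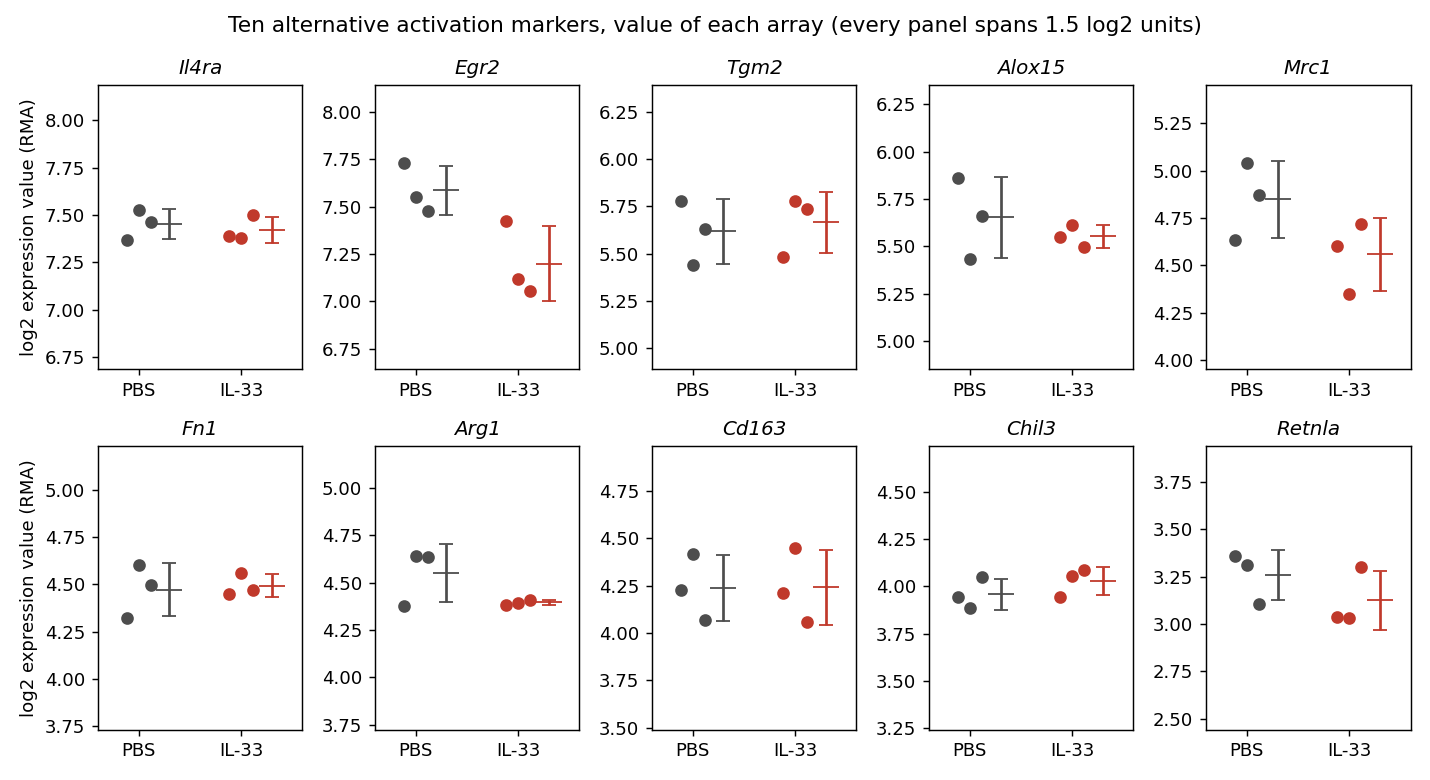
Log2 expression value (RMA) of each marker on each array, ordered from the highest to the lowest percentile; points run from replicate 1 to 3 within PBS (grey) and IL-33 (red), and the cross and bar beside them are the mean and SD (n = 3). Every panel spans the same 1.5 log2 units. The groups are apart in Egr2 alone.

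The 3 effector genes most used as readouts of IL-4 in mouse macrophages were under the 95th percentile of olfactory receptor genes in both groups. Of these, Arg1 lay just outside the low end as defined above. Arg1 (Entrez gene 11846) encodes arginase 1, which turns arginine into ornithine and so competes with nitric oxide synthase for arginine. Its log2 values were 4.38, 4.64 and 4.64 in PBS replicates 1 to 3 and 4.38, 4.39 and 4.41 in IL-33 replicates 1 to 3. PBS replicate 1 was at the level of the IL-33-labelled arrays, while the other arrays labelled PBS were higher. The difference was -0.16 ± 0.08 (log2, SE), with a 95% interval from -0.35 to 0.03 and an adjusted p of 0.470 (limma). It was -0.24 without PBS replicate 1, and the adjusted p over all alternatives lay between 0.265 and 0.678.

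Chil3 (Entrez gene 12655) encodes the chitinase-like protein Ym1, which macrophages secrete. Arrays gave Chil3 log2 values of 3.94, 3.89 and 4.05 in PBS replicates 1 to 3 and 3.94, 4.05 and 4.09 in IL-33 replicates 1 to 3. The groups overlapped, and the difference was 0.07 ± 0.07 (log2, SE) with an adjusted p of 0.720 (limma). Among olfactory receptor genes 27.0% were as high as Chil3 in the PBS-labelled arrays and 24.3% in the IL-33-labelled ones. Its near-identical neighbour Chil4 differed by 0.17 with an adjusted p of 0.326 (limma) and lay at percentile 7.04 of all genes, and was named after its values were seen. Signal shared between probe sets of such close copies could not be separated here.

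Retnla (Entrez gene 57262) encodes the secreted protein RELM alpha, also called FIZZ1, and was the lowest of the markers on the scale. Retnla read, on the log2 scale, 3.36, 3.31 and 3.11 in PBS replicates 1 to 3 and 3.04, 3.03 and 3.30 in IL-33 replicates 1 to 3. IL-33 replicate 3 lay among the PBS-labelled arrays. The difference was -0.14 ± 0.10 (log2, SE) with an adjusted p of 0.636 (limma). It was -0.22 without IL-33 replicate 3 and -0.21 without PBS replicate 3. Leaving out PBS replicate 1 gave -0.085 and leaving out IL-33 replicate 2 gave -0.089, and no such fit passed. Among olfactory receptor genes 60.2% were as high as Retnla in the PBS-labelled arrays and 69.7% in the IL-33-labelled ones, so both group means were within the bulk of these genes.

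The promoters of Retnla and Chil3 are printed because they are textbook STAT6 targets that sat near the low end in both groups. RefSeq promoters (GRCm38.p6) were matched for 6 of the 10 markers: Cd163, Chil3, Egr2, Il4ra, Mrc1 and Retnla. The motif searched on either strand of the 250 bases before each start was TTC, any 4 bases and GAA, the spacing that STAT6 prefers. The same letters around any 3 bases, the spacing of other STAT factors, were added after the sequences were seen. The capitals mark the match in the Retnla window at chr16:48842359-48842608 on the plus strand and in the Chil3 window at chr3:106167565-106167814 on the minus strand.
Retnla: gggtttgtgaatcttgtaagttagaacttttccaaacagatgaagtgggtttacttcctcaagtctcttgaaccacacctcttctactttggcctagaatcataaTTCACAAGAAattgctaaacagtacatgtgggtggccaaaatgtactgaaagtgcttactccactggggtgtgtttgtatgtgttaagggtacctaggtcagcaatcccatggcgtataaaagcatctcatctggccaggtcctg
Chil3: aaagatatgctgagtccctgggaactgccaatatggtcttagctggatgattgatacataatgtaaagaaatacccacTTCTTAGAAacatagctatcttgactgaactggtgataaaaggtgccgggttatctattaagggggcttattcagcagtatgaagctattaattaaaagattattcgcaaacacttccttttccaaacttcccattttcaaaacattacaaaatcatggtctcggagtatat
Retnla held the wider motif beginning 145 bases before its start, and Chil3 held the narrower one beginning 172 bases before its start. The other 4 matched markers held neither in these windows. Of all 32851 promoter windows, 5.85% held the wider motif and 7.02% the narrower.

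The receptors on the cell surface gave the second largest difference and the smallest. Mrc1 (Entrez gene 17533) encodes the mannose receptor CD206, an endocytic lectin. Its log2 values were 4.63, 5.04 and 4.87 in PBS replicates 1 to 3 and 4.60, 4.35 and 4.72 in IL-33 replicates 1 to 3. PBS replicate 1 lay within the range of the IL-33-labelled arrays, and the remaining PBS arrays lay above it. The difference was -0.29 ± 0.13 (log2, SE), 1.22-fold lower, with a 95% interval from -0.60 to 0.02 and an adjusted p of 0.400 (limma). Without PBS replicate 1 it was -0.40, and without IL-33 replicate 2 it was -0.19.

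Cd163 (Entrez gene 93671), the scavenger receptor that takes up haemoglobin bound to haptoglobin, did not separate the groups at all. Log2 values of Cd163 were 4.23, 4.42 and 4.07 in PBS replicates 1 to 3 and 4.21, 4.45 and 4.06 in IL-33 replicates 1 to 3. The difference was 0.00 ± 0.12 (log2, SE) with an adjusted p of 0.995 (limma), and its sign changed with the array left out. Its 95% interval ran from -0.29 to 0.29, so the mean difference near 0 does not by itself show equal levels.

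The enzyme genes lay near the median of the scale. Tgm2 (Entrez gene 21817) encodes transglutaminase 2, a protein-crosslinking enzyme. Tgm2 read, on the log2 scale, 5.78, 5.44 and 5.63 in PBS replicates 1 to 3 and 5.48, 5.78 and 5.74 in IL-33 replicates 1 to 3. The groups overlapped throughout, and the difference was 0.05 ± 0.11 (log2, SE) with an adjusted p of 0.900 (limma). Alox15 (Entrez gene 11687) encodes a lipoxygenase that oxygenates arachidonic acid. Alox15 had log2 values of 5.86, 5.43 and 5.66 in PBS replicates 1 to 3 and 5.55, 5.61 and 5.50 in IL-33 replicates 1 to 3. The IL-33-labelled arrays all fell inside the range of those labelled PBS, and the difference was -0.10 ± 0.11 (log2, SE) with an adjusted p of 0.754 (limma). About as many olfactory receptor genes were as high as Tgm2 as were as high as Alox15, 3.35% each in the PBS-labelled arrays.

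Fn1 (Entrez gene 14268) encodes the matrix glycoprotein fibronectin, which macrophages secrete in the alternative state. Log2 values of Fn1 were 4.32, 4.60 and 4.50 in PBS replicates 1 to 3 and 4.45, 4.56 and 4.47 in IL-33 replicates 1 to 3. The IL-33-labelled arrays fell inside the range of those labelled PBS. The difference was 0.02 ± 0.08 (log2, SE) with an adjusted p of 0.947 (limma).

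**Figure D3:**
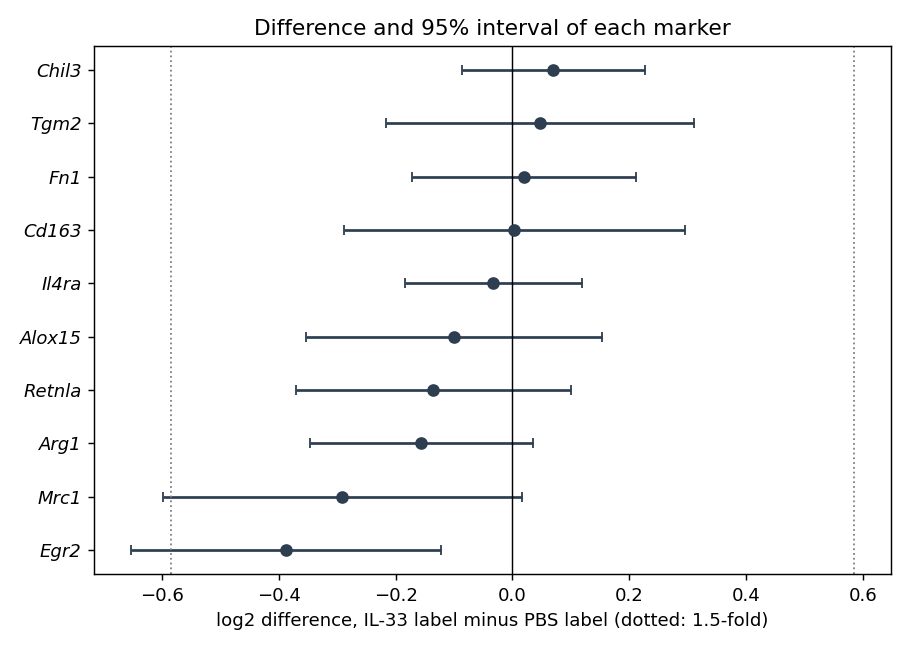
Log2 difference (IL-33 label minus PBS label) of each marker with its 95% interval from the limma fit; dotted lines mark 1.5-fold. The interval of Egr2, from -0.65 to -0.12, is the only one that leaves out 0, and no interval is adjusted for the number of markers.

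Averaged over the 10 markers, the PBS-labelled arrays lay between 5.15 and 5.19 and those labelled IL-33 between 5.05 and 5.08 (log2). The difference of these means was -0.10 over all 10 markers, a description of genes that were chosen with these results known. Markers were then left out in the order of their decrease, so a shrinking difference is by construction. Without Egr2 the difference was -0.064, and the groups were still apart. How often means over other genes lie apart was not computed. Without Egr2 and Mrc1 the means lay between 4.889 and 4.908 in the PBS group and between 4.805 and 4.907 in the IL-33 group. The groups then overlapped, and the difference was -0.035.

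The pattern over the 6 arrays was set beside that of the 10501 or fewer other genes at or above the median of all genes with an official symbol, for the 3 markers above the low end with the smallest p. Egr2 was followed most closely by Slain2, Adamts1 and Slc39a10, with Pearson r of 0.995, 0.991 and 0.988, and 102 genes reached an r of at least 0.95. Mrc1 was followed by Abcb1b, Spcs1 and Morc2a, with r of 0.994, 0.988 and 0.977. Arg1 was followed by Cenpx, Ddx43 and Rbsn, with r of 0.999, 0.987 and 0.985. Each r is a description over 6 arrays that all genes share, taken as the highest among the genes searched. Of these 9 genes none passed, with adjusted p between 0.148 and 0.853 (limma).

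The pathway above the markers was measured and also gave no call. Of 14 measured genes of the IL-4 and IL-13 signal chain 0 passed in limma over all genes and 5 had an unadjusted p under 0.05, where 13.2% of all genes did, with 7 above 0 and 7 below and a median log2 difference of -0.01. Stat6, the gene of the central factor, was at 10.64 ± 0.03 under the PBS label and 10.62 ± 0.02 (SD, n = 3 each) under the IL-33 label, which is -0.03 apart, at an adjusted p of 0.867 (limma), and was named after its values were seen. Il13ra1, the chain that joins Il4ra in the IL-13 receptor, was at 10.12 ± 0.04 against 10.38 ± 0.02 (SD, n = 3 each), 0.26 apart at an adjusted p of 0.0901 (limma). Il13ra2, which binds IL-13 as a decoy, was at 7.11 ± 0.13 against 6.71 ± 0.11 (SD, n = 3 each), -0.40 apart at an adjusted p of 0.119 (limma). The groups did not overlap in either receptor gene, both named for the smallest p in the list. Over the list they did not overlap in 7 of 14 genes, beside 20.3% of all genes. Those shares of all genes include dim ones: 49.3% of all genes, but 3 of these 14, lay at or under the median in both groups. Il13ra1 and Il13ra2 passed in 3 and 2 of the 9 alternatives that kept every array, and in 0 of the 6 that left an array out.

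Of 12 measured transcription regulators of the alternative state 0 passed and 4 had an unadjusted p under 0.05 (limma), beside the same 13.2% of all genes, with a median log2 difference of -0.07. Bhlhe40, a basic helix-loop-helix repressor, differed by -0.44 ± 0.09 and Myc, the growth regulator that IL-4 also induces, by -0.52 ± 0.11 (log2, SE), with adjusted p of 0.101 and 0.102 (limma). Irf4, which acts with STAT6 on alternative genes, differed by -0.38 at an adjusted p of 0.111 (limma) and was named after its values were seen. The groups did not overlap in these 3 genes, and each was lower in every array labelled IL-33 than in any labelled PBS. Over the list the groups did not overlap in 4 of 12 genes, beside 20.3% of all genes. Of the 12 genes 2 lay at or under the median in both groups, beside 49.3% of all genes. Bhlhe40 and Myc were named for the smallest p in the list, which favours genes without overlap. Klf4 and Pparg, further factors of the state, differed by 0.06 and 0.11, with adjusted p of 0.834 and 0.544 (limma), and were likewise named after their values were seen.

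Among 18 further markers of alternative activation 2 fell, 0 rose and 16 did not pass, and the median log2 difference was -0.07. Mmp12, the macrophage elastase, was at 9.59 ± 0.09 in the PBS-labelled arrays and 8.38 ± 0.05 (SD, n = 3 each) in the IL-33-labelled ones, 2.31-fold lower at an adjusted p of 0.00285 (limma), and it passed whichever array was left out. Clec7a, the beta-glucan receptor, was 1.43-fold lower at an adjusted p of 0.0317 (limma) and was lost in each of the 6 fits without an array. The log2 difference of Clec7a in these fits stayed between -0.56 and -0.47. Both genes had passed in earlier results of these data, so their place on the list is no independent evidence. The chemokines Ccl17, Ccl22 and Ccl24, which IL-4 induces in macrophages, differed by -0.06, -0.08 and -0.10, with adjusted p of 0.722, 0.767 and 0.587 (limma), and were named after their values were seen.

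The arginine and polyamine enzymes, the route on which Arg1 acts, gave 0 calls of 13 and 4 with an unadjusted p under 0.05 (limma), against 13.2% of all genes. Their median log2 difference was -0.03, with 3 above 0 and 10 below, where 47.9% and 52.1% of all genes were. Nos2, the inducible nitric oxide synthase and the classical counterpart of Arg1, was at 11.96 ± 0.11 in the PBS-labelled arrays and 11.68 ± 0.09 (SD, n = 3 each) in the IL-33-labelled ones, which is -0.28 apart, at an adjusted p of 0.202 (limma). Slc7a2, a transporter of arginine, differed by -0.26 with an adjusted p of 0.229 (limma). Within arrays the log2 ratio of Arg1 to Nos2 differed by 0.12 ± 0.15 (SE) between the groups, which overlapped, with an exact two-sided permutation p of 0.7, also after adjustment over the 6 ratios. Arg2, the mitochondrial arginase, differed by -0.14 at an adjusted p of 0.352 (limma) and was named after its values were seen.

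Among 22 measured relatives of the markers 0 passed and 6 had an unadjusted p under 0.05 (limma), against 13.2% of all genes, with a median log2 difference of -0.04. Alox5, the lipoxygenase that starts leukotriene synthesis, was at 8.55 ± 0.15 against 9.05 ± 0.04 (SD, n = 3 each), 0.49 apart at an adjusted p of 0.0593 (limma). The second smallest p in this list was that of Egr1, given above. Classical activation markers gave 1 rise, 1 fall and 15 members of 17 that did not pass, and the median log2 difference was 0.01. Of the 17, 9 had an unadjusted p under 0.05 (limma) and 9 had groups that did not overlap, beside 13.2% and 20.3% of all genes. The interferon-induced chemokine Cxcl10 rose by 0.45 and Il1b, the inflammasome cytokine, fell by 0.55 on the log2 scale, with adjusted p of 0.0183 and 0.0285 (limma). Cxcl10 was lost in 5 of the 6 fits without an array, all but the one without IL-33 replicate 1, and Il1b in 6. In these fits the log2 difference of Cxcl10 stayed between 0.43 and 0.46 and that of Il1b between -0.59 and -0.49. Over all genes 15 to 83 passed without 1 array, against 131 with every array. The background for all these lists is the 0.275% of all genes that were higher and the 0.316% that were lower. All such shares cover dim genes too, and no share among genes of like brightness was computed. At or under the median in both groups lay 4 of 17 classical markers and 1 of 13 arginine enzymes, beside 49.3% of all genes. Of the relatives 16 of 22 lay there, and of the further markers 12 of 18.

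**Figure D4:**
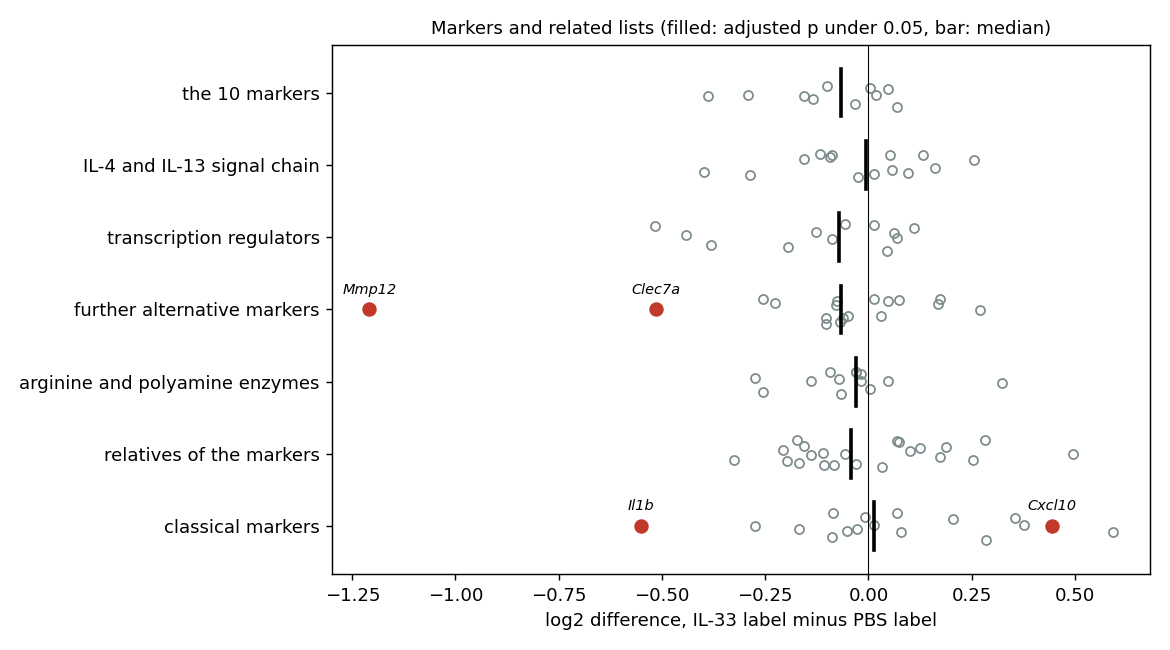
Log2 difference (IL-33 label minus PBS label) of every measured gene in the 10 markers and in 6 related lists; filled red points have an adjusted p under 0.05 (limma), open points do not, and the bar is the median. The 10 markers hold no filled point, and Mmp12, Clec7a, Il1b and Cxcl10 are the filled points in the other lists.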

How the data were processed

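Biotin-labelled cDNA from total RNA of 6 samples was measured on 6 arrays, per the labels' protocols. The table the authors deposited holds log2 values from RMA, per the submitters' processing notes. RMA corrects background, equalises the distributions of arrays by quantiles and summarises probes by median polish. The RMA version used is not stated. Of 41345 probe sets, 23521 carried exactly 1 gene symbol; the one with the highest mean over 6 arrays stood for each of 22180 genes. Groups came from the sample titles. The values were fitted as deposited with limma 3.58.1 in R 4.3.3 (lmFit, eBayes, no covariates, no filter on dim genes), with Benjamini-Hochberg adjustment over all genes. Figures used matplotlib 3.10.9.

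The markers and lists were chosen with earlier results of these data known. All 10 markers were named. Of each other list, up to 4 genes that passed or else the 2 with the smallest p were named. Genes outside this rule are marked as such. The replicate numbers of the groups were not taken as pairs. Same-numbered arrays correlated at 0.082, 0.088 and 0.022 in their deviations from group means. With IL-33 arrays of other numbers, PBS replicates 1 to 3 correlated at -0.085 to -0.014, -0.125 to 0.059 and -0.07 to 0.044. PBS replicates 1 and 2 thus correlated best with their own number, so these values do not settle whether the numbers are pairs. Alternatives were 2 filters on dim genes, 2 other scalings, 2 other uses of probe sets, the replicate block, another prior variance, array weights and leaving out each array. Promoters were matched by symbol to RefSeq (GRCm38.p6); the build behind the array annotation was not named, so no gene coordinates are given.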

Additional observations from a re-analysis of the deposited data

How the results depend on the processing

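No marker was higher in any of the 15 alternatives, and the only call was Egr2, the 1 marker that was lower with a trended and robust prior variance. The median difference of the markers was -0.21 with dim genes under the median mean left out, where 2 markers were left. At the low end, 2 markers sat at or under the 25th percentile of all probe sets, against 3 with that of genes. At or under the 95th percentile of olfactory receptor genes there were 6, and at or under the median of all genes 8. The count of changed genes was 296 among genes at or above the 25th percentile of the mean, 760 at or above the median, 1000 with the trended and robust prior variance, 21 with the replicate number as a block, and 15 to 83 without 1 array. The block gave 0 higher and 0 lower classical markers and 1 lower further alternative marker. PBS replicates 1 and 2 correlated best with their own number and PBS replicate 3 did not, so whether the block applies is not settled. Leaving out an array gave 0 to 1 higher classical markers, 0 lower classical markers and 1 lower further marker. At or above the 25th percentile, 4 classical markers, 1 relative and 1 signal chain gene were higher. At or above the median, 5 classical markers, 2 relatives, 1 further marker and 2 signal chain genes were higher, and 2 signal chain genes and 2 regulators lower. With the trended and robust prior variance, 5 classical markers, 2 relatives, 1 further marker and 2 signal chain genes were higher, and 2 classical markers, 1 signal chain gene, 2 regulators and 1 arginine enzyme lower. Some genes are in more than 1 list: that arginine enzyme was Nos2, which is also 1 of the 2 classical markers. Array weights gave 2 higher classical markers and 1 higher relative. Fewer genes tested is part of the filters by construction. Likewise, a fit without an array has fewer values from which to estimate spread, and the block spends more terms on the same arrays. Otherwise the cause was not tested.

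Signs of the differences of Cd163, Fn1, Tgm2, Alox15 and Il4ra, none of which passed, changed in at least 1 alternative. Egr2, Mrc1, Arg1, Retnla and Chil3 kept theirs in every alternative that gave a value. The arrays carry no background signal in the table, so whether a marker near the low end was above background is not known.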
